A study of Mus musculus with 9 samples.

Results

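The genes described here are 38 markers of T cells and natural killer (NK) cells, taken by symbol from the 23413 gene rows of a raw RNA-seq count table. The rule itself uses no measured value, but the list was chosen with earlier results of these data known. The table holds liver macrophages sorted as F4/80+CD11b+ cells, and per the study's methods Gr1low, from C57BL/6 male mice, a gate meant for Kupffer cells (KCs), the resident macrophages of the liver. All mice entered the diets at 5 weeks of age and stayed on them for 8 weeks. The ND group (2 libraries) received normal chow and no injection is given for it, the Veh group (3 libraries) a high-fat diet (HFD) with vehicle injections, and the DPI group (4 libraries) HFD with diphenyleneiodonium (DPI), the compound the study uses to activate the receptor GPR3, at 2 mg/kg given intraperitoneally at 5-day intervals starting in week 3. The sample labels instead describe purified cells exposed to DMSO or 500 nM DPI for 24 h in culture, and the in vivo account was followed because the series' design text and the study's methods share it. The comparison of Veh with ND asks how HFD feeding changed the levels of the genes, and that of DPI with Veh asks how treatment changed them on the same diet. The sample titles name 1 numbered mouse per library, while the study's text gives more mice per group than there are libraries, so p-values measure the spread between these libraries.

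Library totals ran from 3534325 counts (DPI2) to 15585775 counts (DPI1), and the ribosomal RNA gene Rn45s took 27% to 44.5% of each library. Levels are given as CPM, the count scaled to a common library total, after TMM scaling, and 3 counts, taken as the fewest told apart from none, stand for 0.184 to 1.02 CPM per library. Such floors, and the counting intervals given with ratios, cover counting error only. The ND libraries stood further apart from each other, with a Spearman correlation of 0.74 across genes, than the Veh libraries (0.867 to 0.88) or the DPI libraries (0.838 to 0.887). Of the general macrophage genes, Csf1r averaged 568 CPM in ND, 545 CPM in Veh and 484 CPM in DPI, and Emr1, the gene of F4/80, averaged 127, 61.3 and 88.3 CPM. The genes that define resident KCs were low or uneven between libraries, with Clec4f at 0 and 244 counts in ND, 42, 0 and 0 counts in Veh and 219, 6, 4 and 6 counts in DPI, and with Marco and Vsig4 averaging under 2 CPM in every group. Cd5l averaged 10.6, 4.98 and 12.3 CPM in ND, Veh and DPI, with 601 counts in DPI1, and Timd4 averaged 2.61, 0.518 and 0.0408 CPM.

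T cells recognise antigen through a receptor that signals by way of the CD3 chains, the kinases LCK and ZAP70 and the adaptor LAT. NK cells lack that receptor, read activating and inhibitory receptors of the killer cell lectin-like family, and share with CD8 T cells the granzymes and perforin with which they kill target cells. Liver holds many lymphocytes of both kinds, whereas macrophages are not known for the CD3 chains. In a bulk library of sorted cells, fewer cells of a type and less RNA per cell cannot be told apart.

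The CD3 chain genes Cd3e, Cd3d and Cd3g lie side by side on chromosome 9, and their promoters are shown because these genes answer most directly whether T cell transcripts are present. The windows run from 250 bases before to 50 bases after each start (RefSeq, GRCm38.p6), at chr9:45009562-45009861 on the minus strand for Cd3e, chr9:44981536-44981835 on the plus strand for Cd3d and chr9:44980382-44980681 on the minus strand for Cd3g. Capitals mark the ETS core AGGAAG and the T-box motif GGTGTG, the letters associated with ETS factors and with T-bet or Eomes, on either strand.
Cd3e: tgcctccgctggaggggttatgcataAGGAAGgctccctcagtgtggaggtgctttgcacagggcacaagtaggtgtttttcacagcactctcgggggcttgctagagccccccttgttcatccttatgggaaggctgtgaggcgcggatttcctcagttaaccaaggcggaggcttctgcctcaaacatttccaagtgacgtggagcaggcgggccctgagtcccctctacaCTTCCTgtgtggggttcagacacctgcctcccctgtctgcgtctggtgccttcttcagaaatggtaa
Cd3d: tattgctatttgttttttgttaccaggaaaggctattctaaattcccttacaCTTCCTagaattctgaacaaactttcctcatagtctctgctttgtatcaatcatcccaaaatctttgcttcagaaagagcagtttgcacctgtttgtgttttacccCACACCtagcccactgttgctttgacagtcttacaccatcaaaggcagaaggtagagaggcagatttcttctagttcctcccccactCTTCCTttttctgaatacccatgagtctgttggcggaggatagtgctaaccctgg
Cd3g: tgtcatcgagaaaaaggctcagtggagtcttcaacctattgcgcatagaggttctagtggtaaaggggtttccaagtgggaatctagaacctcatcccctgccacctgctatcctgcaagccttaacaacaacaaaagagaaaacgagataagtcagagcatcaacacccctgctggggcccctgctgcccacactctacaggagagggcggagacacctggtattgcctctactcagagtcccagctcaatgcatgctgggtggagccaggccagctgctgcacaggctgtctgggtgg
The Cd3e window held 2 ETS cores, the Cd3d window held 2 ETS cores and 1 T-box motif, and the Cd3g window held no match. RefSeq promoters were found for 29 of the 38 genes, as 38 windows. The ETS core was in 50% of those windows against 35.4% of all 32851 promoters, the RUNX core ACCACA in 39.5% against 16.8%, and the T-box motif in 26.3% against 19%. These shares describe letters in a window and not binding.

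In Veh libraries the T and NK cell genes lay mostly above their level in ND libraries. Of the 38, all but Cd4 (37 genes) had enough counts to be tested among 11393 genes, and 26 had a count in every library. At the study's threshold, an unadjusted p under 0.05 with at least a 2-fold change, 11 of the 37 (29.7%) were higher in Veh than in ND, against 7.03% of all genes tested, and 0 were lower, against 4.63% of all genes. The median log2 fold change was 1.29 over the 37 genes and 0.03 over all genes tested, and 30 of the 37 had a positive value. None had an adjusted p under 0.05 (edgeR quasi-likelihood test with Benjamini-Hochberg adjustment, smallest value 0.14), where 0.0614% of all genes did, although 11 had an unadjusted p under 0.05, and DESeq2 gave 4 adjusted calls (312 over all genes tested) and edgeR's likelihood ratio test 3 (280 over all). All 3 Veh libraries lay above both ND libraries for 14 genes (37.8%, against 15% of all genes) and below both for 1, Bcl11b (against 12.5% of all genes).

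The summed level of the 38 genes was 258 and 594 CPM in the ND libraries, 661, 983 and 810 CPM in the Veh libraries and 607, 1236, 790 and 574 CPM in the DPI libraries, listed here and below from replicate 1 upwards. ND1 was the lowest library and had 11 of the 38 genes at 0 counts, while no other library had more than 3 at 0. The count of higher genes rested on the ND pair and on Veh2. The median log2 fold change of the members was 0.62 without ND1 and 2.86 without ND2 (0.14 and 0.29 over all genes). The count was 7 of 38 without ND1 (8.13% of all genes were then higher), 25 of 37 without ND2 (14.5%), 6 of 37 without Veh2 (6.75%) and 9 to 11 without any other library.

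**Figure D1:**
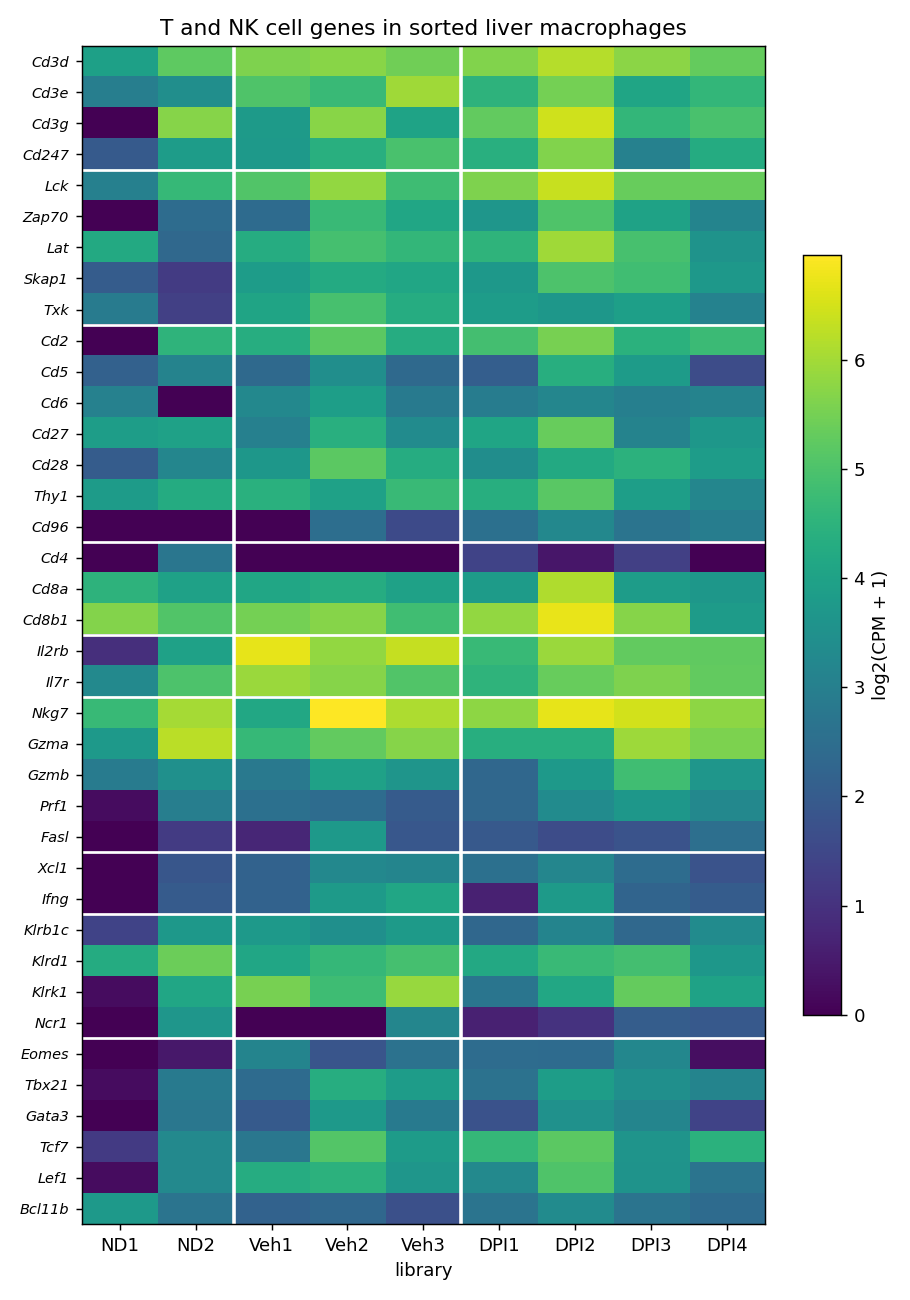
Level of each of the 38 T and NK cell genes (rows, ordered by role) in the 9 libraries (columns), as log2(CPM + 1) by colour. Dark cells are low levels. The ND1 column holds the most of the darkest cells, with 11 genes at 0 counts, and DPI2 has the highest summed level, 1236 CPM.

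Among the CD3 chains, which carry the signal of the T cell receptor into the cell, Cd3e was the 1 of 4 that was higher in Veh at the threshold. Cd3e (chromosome 9, 44998740 to 45009627) was at 6.92 and 9.9 CPM in ND, 31.7, 25.4 and 61.2 CPM in Veh and 21.6, 44.2, 16 and 23.4 CPM in DPI. Every HFD library, with or without DPI, thus lay above both ND libraries. Veh exceeded ND by 2.23 on the log2 scale (standard error 0.59, edgeR, adjusted p = 0.175), and the call was kept with any library left out. Cd3d (chromosome 9, 44981786 to 44987339) was at 14.6 and 36.4 CPM in ND, 48.2, 51.5 and 42.4 CPM in Veh and 48.4, 71.7, 52.7 and 39 CPM in DPI. It was above both ND libraries in all 7 HFD libraries, with a log2 difference of 0.89 (standard error 0.44) between Veh and ND that missed the threshold (edgeR, adjusted p = 0.408). Cd3g had 0 and 271 counts in ND, and its log2 difference between Veh and ND was 0.08 (standard error 1.17). That small difference rested on ND2, since without ND2 the ND level was 0. Cd247, the zeta chain, had a log2 difference of 1.35 (standard error 0.82, edgeR, adjusted p = 0.502).

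The genes that signal below the receptor were higher in Veh at the threshold in 4 of 5 cases, and their summed level was 34.2 and 35.5 CPM in ND against 84.8, 157 and 102 CPM in Veh and 107, 218, 125 and 77.9 CPM in DPI. For this role the sums of the ND libraries were close to each other and below every HFD library. The single genes were further apart. Lat (17.7 and 4.11 CPM), Txk and Skap1 were higher in ND1, and Lck and Zap70 were higher in ND2. Skap1, an adaptor that links the receptor to integrin adhesion (chromosome 11, 96464593 to 96759130), was at 3.1 and 1.31 CPM in ND, 13.3, 18.1 and 16.4 CPM in Veh and 12.1, 31.2, 27.3 and 12.1 CPM in DPI. Its log2 fold change for Veh against ND was 2.84 (standard error 0.72, edgeR, adjusted p = 0.152). The call was kept with any library left out, at 3.60 without ND1. Txk, a TEC family kinase (chromosome 5, 72695978 to 72752777), was at 6.37 and 1.49 CPM in ND, 15.8, 29.6 and 18.8 CPM in Veh and 13.4, 11.9, 14.1 and 7.45 CPM in DPI. All Veh values lay above all ND and all DPI values, and the log2 fold change against ND was 2.44 (standard error 0.73, edgeR, adjusted p = 0.23), also kept with any library left out, at 3.84 without ND1 and 1.78 without ND2. Lck, the kinase that phosphorylates the CD3 chains (chromosome 4, 129548344 to 129573641), was at 7.1 and 24.1 CPM in ND, 32.4, 55.3 and 26.5 CPM in Veh and 48.1, 81.9, 39.5 and 39.5 CPM in DPI. Veh exceeded ND by 1.29 on the log2 scale (standard error 0.56, edgeR, adjusted p = 0.362), and the call was lost without ND1 (0.68) or Veh2, and was at 2.45 without ND2. Zap70, the kinase recruited to phosphorylated CD3 chains (chromosome 1, 36761798 to 36782818), was at 0 and 4.48 CPM in ND, 4.44, 25.2 and 16.4 CPM in Veh and 11.5, 31.9, 15 and 7.76 CPM in DPI. Veh1 overlapped ND2, the log2 change was 2.77 (standard error 1.2, edgeR, adjusted p = 0.358), and the call was lost without ND1 (1.79), Veh2, Veh3 or DPI3. Without ND2 the ND level was 0. Lat, the adaptor below ZAP70, had a log2 difference of 1.12 (standard error 0.73) that missed the threshold.

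Of 7 surface receptors of T and NK cells, Cd28 and Cd96 were higher in Veh at the threshold. Cd28, the costimulatory receptor for CD80 and CD86 (chromosome 1, 60716800 to 60773359), was at 3.1 and 8.22 CPM in ND, 11.8, 36.1 and 18.6 CPM in Veh and 9.62, 17.7, 21.2 and 13.3 CPM in DPI. All HFD libraries lay above both ND libraries, with Veh above ND by 1.97 on the log2 scale (standard error 0.70, edgeR, adjusted p = 0.289), a call lost without ND1 or Veh2 and at 2.87 without ND2. Cd96, a receptor for nectins (chromosome 16, 46035657 to 46120251), was at 0 in both ND libraries, at 0, 4.72 and 1.98 CPM in Veh and at 4.96, 8.49, 5.38 and 6.73 CPM in DPI. Its mean in Veh was at least 4.03-fold higher than a floor of 3 counts per ND library (edgeR, adjusted p = 0.278), although Veh1 was itself at 0. The bound was 1.79-fold without Veh2 and 6.05-fold without Veh1. The other 5 receptors, Cd2, Cd5, Cd6, Cd27 and Thy1, had log2 differences between -0.23 (Cd27) and 1.38 (Cd6), with adjusted p of 0.659 or more (edgeR).

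The T cell coreceptors differed from each other more than between the groups. Cd8b1, the beta chain of CD8 (chromosome 6, 71322788 to 71337494), was at 49.7 and 32.3 CPM in ND, 44.2, 50.8 and 27.3 CPM in Veh and 56, 104, 50.5 and 13.1 CPM in DPI. Its log2 difference between Veh and ND was -0.01 (standard error 0.62), and that of Cd8a, the alpha chain, was -0.13 (standard error 0.72), both with overlapping groups. Cd4, the coreceptor of helper T cells, had 0 and 30 counts in ND, 0 counts in all 3 Veh libraries and 27, 1, 8 and 0 counts in DPI, too few for the test. Divided by exon length, the mean levels of Cd8b1 were 27.7, 27.5 and 37.6 CPM per kilobase in ND, Veh and DPI, those of Cd8a were 5.79, 5.29 and 8.53, and those of Cd4 were 0.901, 0 and 0.28. Cd8b1 and Cd8a thus exceeded Cd4 on that scale in each group.

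**Figure D2:**
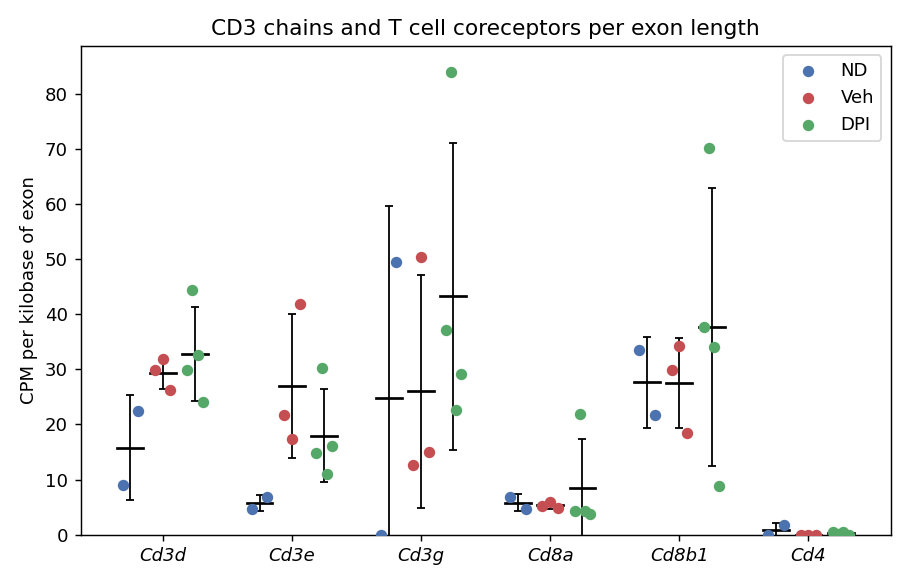
CPM per kilobase of exon of the CD3 chains Cd3d, Cd3e and Cd3g and of the coreceptors Cd8a, Cd8b1 and Cd4, with 1 point per library and the mean ± SD of each group. Cd3e is lower in both ND libraries than in all HFD libraries, Cd8a and Cd8b1 overlap between groups, and Cd4 has the lowest mean of the 6 genes in each group.

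Both cytokine receptor genes were higher in Veh. Il2rb, the beta chain shared by the receptors of IL-2 and IL-15 (chromosome 15, 78479256 to 78495271), was at 0.911 and 14.8 CPM in ND, 103, 55.5 and 80.8 CPM in Veh and 24.9, 59.4, 38.2 and 37.2 CPM in DPI. Every HFD library lay above both ND libraries, and DPI2 was the 1 DPI library above the lowest Veh library. The log2 fold change for Veh against ND was 3.35 (standard error 0.81, edgeR, adjusted p = 0.14), with the smallest p of the 37 genes in this comparison. The call was kept with any library left out, at 2.44 without ND1 and 6.45 without ND2. Il7r, the receptor chain for the survival cytokine IL-7 (chromosome 15, 9505788 to 9530176), was at 8.74 and 31.4 CPM in ND, 59, 50.4 and 32.5 CPM in Veh and 21.8, 39.4, 47.5 and 38.1 CPM in DPI. Veh exceeded ND by 1.24 on the log2 scale (standard error 0.55, edgeR, adjusted p = 0.371), and Veh3 was barely above ND2. The call was lost without ND1 (0.60), Veh1, Veh2, DPI3 or DPI4, and the change was 2.46 without ND2.

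None of the 5 cytotoxic effector genes passed the threshold. Nkg7, a granule membrane protein and the effector gene with the most counts (chromosome 7, 43437073 to 43438249), was at 24.8 and 63.9 CPM in ND, 17.1, 123 and 67.9 CPM in Veh and 53.4, 103, 87.9 and 54 CPM in DPI. The groups overlapped, and the log2 difference between Veh and ND was 0.65 (standard error 0.65). For the granzymes Gzma and Gzmb, the perforin gene Prf1 and the death ligand gene Fasl it ran from -0.21 (Gzma) to 2.96 (Fasl, standard error 1.65), with adjusted p of 0.467 or more (edgeR). The summed level of effectors divided by that of the CD3 chains was 1.8 and 1.42 in ND, 0.505, 1.3 and 0.907 in Veh and 0.655, 0.581, 1.91 and 1.13 in DPI, so both ND libraries lay above all Veh libraries and DPI3 lay above both.

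The secreted cytokine genes were low. Ifng, the gene of interferon gamma (chromosome 10, 118441046 to 118445892), was at 0 and 2.99 CPM in ND, 3.55, 12.7 and 16.4 CPM in Veh and 0.552, 12.9, 3.71 and 3.06 CPM in DPI. All Veh values lay above both ND values, but the log2 difference of 2.85 (standard error 1.52) missed the threshold (edgeR, adjusted p = 0.443). Xcl1, a chemokine of NK and CD8 T cells, had a log2 difference of 2.34 (standard error 1.33).

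Of 4 NK receptor genes, Klrk1 was higher in Veh. Klrk1, which encodes the activating receptor NKG2D (chromosome 6, 129610323 to 129623864), was at 0.182 and 16.2 CPM in ND, 45.1, 26.8 and 57.7 CPM in Veh and 5.52, 17, 38.4 and 15 CPM in DPI. The ND1 value stands for 1 count, and Veh lay above both ND libraries whereas DPI overlapped both groups. The log2 fold change for Veh against ND was 2.39 (standard error 1.10, edgeR, adjusted p = 0.381), and the call was lost without ND1 (1.41), any 1 of the Veh libraries, DPI2 or DPI4. Without ND2 the ND level rests on that 1 count. Klrd1, which encodes CD94, Klrb1c, which encodes NK1.1, and Ncr1, which encodes NKp46, had log2 differences of -0.37 (standard error 0.53), 0.79 (standard error 0.85) and -1.09 (standard error 2.00). Ncr1, which marks NK cells and related innate lymphoid cells, was at 0 in ND1, Veh1 and Veh2. Killer cell lectin-like genes have relatives of similar sequence, as granzymes do, so reads may have been divided between them.

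Among 6 transcription factors, Eomes was higher in Veh. Eomes, a T-box factor of NK and memory CD8 T cells (chromosome 9, 118478212 to 118486132), had 0 and 2 counts in ND and was at 7.77, 2.54 and 5.2 CPM in Veh and 4.47, 4.42, 8.35 and 0.204 CPM in DPI. The pooled ratio of Veh to ND was 27 with a counting interval of 7.2 to 227 (95%, edgeR, adjusted p = 0.315), and the call was lost without ND1, where the ratio was 13.3 (3.56 to 112). Without ND2 the ND level was 0, and Veh was at least 9.46-fold higher. Tcf7, which encodes TCF1, a factor of naive and memory T cells (chromosome 11, 52252371 to 52283014), was at 1.27 and 8.59 CPM in ND, 5.77, 33.4 and 13.1 CPM in Veh and 23.7, 35.7, 11.1 and 20.9 CPM in DPI. Veh1 overlapped ND2, and the log2 difference between Veh and ND was 1.82 (standard error 0.89, edgeR, adjusted p = 0.403). Tbx21, Gata3 and Lef1 had log2 differences of 1.92, 1.29 and 1.97 that missed the threshold, and Bcl11b, a factor of T cell commitment, had -1.46 (standard error 0.82) with all Veh libraries below both ND libraries. Without ND2, where the ND level of each rests on 1 count, Lef1 was at 6.46 and Tbx21 at 5.98.

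**Figure D3:**
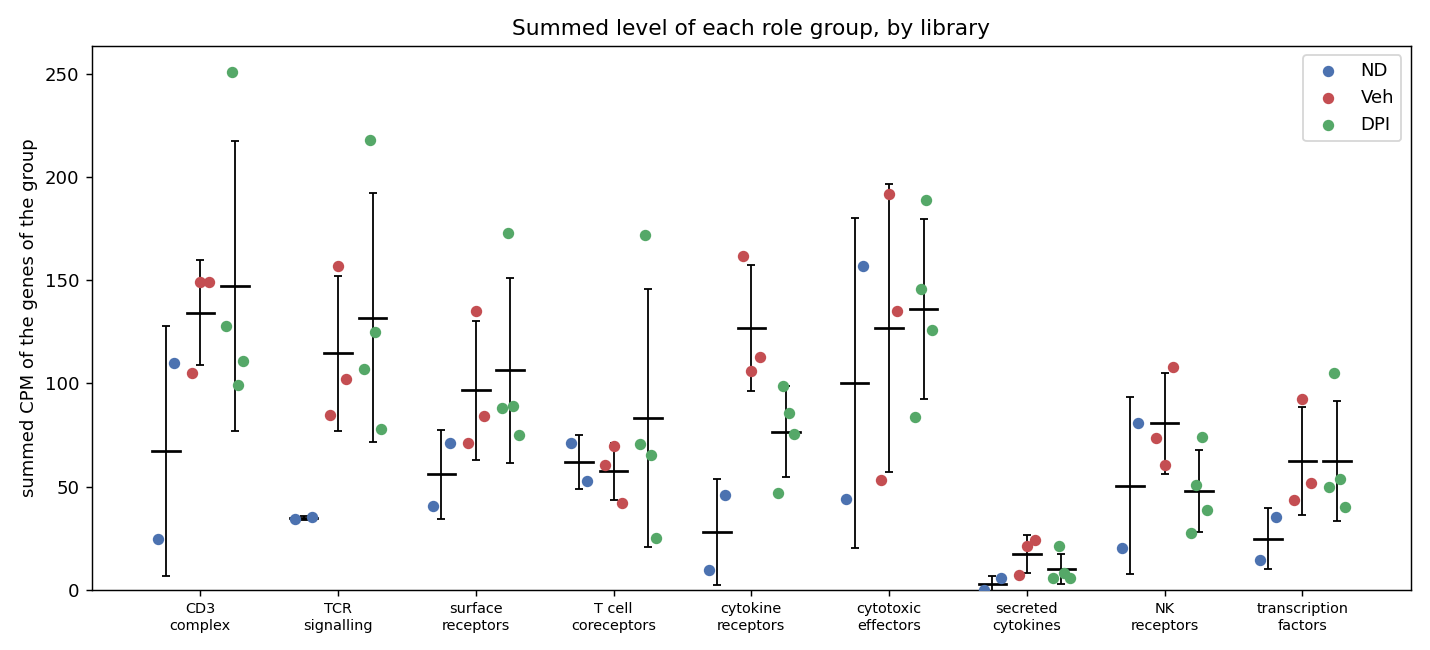
Summed CPM of the genes of each of the 9 roles, with 1 point per library and the mean ± SD of each group, the SD bar cut at 0. Both ND libraries lie below all HFD libraries for receptor signalling (35.5 CPM at most in ND against 77.9 CPM at least), for transcription factors (35.1 CPM at most against 40.3 CPM at least) and, by under 1 CPM, for surface receptors and cytokine receptors, while the other 5 roles overlap.

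Between DPI and Veh libraries none of the T and NK cell genes passed the threshold. At an unadjusted p under 0.05 with a 2-fold change, 0 of 37 were higher, against 1.5% of all genes tested, and 0 were lower, against 1.34% of all genes. No member had an unadjusted p under 0.05 and none an adjusted one (edgeR quasi-likelihood test, Benjamini-Hochberg, smallest value 0.999, as 0% of all genes did), and DESeq2 and edgeR's likelihood ratio test gave 0 adjusted calls among them. The median log2 difference was -0.04 over the 37 genes and 0.04 over all genes, with 18 positive and 19 negative values. All DPI libraries lay above all Veh libraries for Cd96 and Bcl11b (2 of 37, or 5.41%, against 3.38% of all genes) and below them for Txk and Klrb1c (2 of 37, against 2.48% of all genes). The log2 differences were 1.5 (standard error 1.19) for Cd96, 0.88 (standard error 0.71) for Bcl11b, -0.87 (standard error 0.54) for Txk and -0.91 (standard error 0.69) for Klrb1c.

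Il2rb and Klrk1 passed the threshold between DPI and Veh in some alternative fits and not in that of all 9 libraries. The log2 difference of Il2rb was -1.01 (standard error 0.57, edgeR, adjusted p = 0.999) and that of Klrk1 was -1.19 (standard error 0.83, edgeR, adjusted p = 0.999). Both passed the threshold in a fit of the Veh and DPI libraries alone, with -1.04 (standard error 0.34, edgeR, adjusted p = 0.826) for Il2rb and -1.22 (standard error 0.52, edgeR) for Klrk1, and also without ND1 or ND2. By role, the summed NK receptors were at 73.7, 60.4 and 108 CPM in Veh and 27.5, 50.9, 74 and 38.9 CPM in DPI, whereas the CD3 chains were at 105, 149 and 149 CPM in Veh and 128, 251, 99.1 and 111 CPM in DPI. The ratio of the CD3 chains to the NK receptors was 1.21 and 1.37 in ND, 1.42, 2.46 and 1.38 in Veh and 4.65, 4.93, 1.34 and 2.85 in DPI. Of the DPI libraries 3 lay above every Veh library and DPI3 lay below every Veh library. The NK receptor sum held 4 genes, all with negative log2 differences between DPI and Veh. Lectin-like genes of a second list, described below, went both ways. Klra1, Klra3, Klra4, Klra8, Klrc1, Klre1, Klrg1 and Klrb1f had positive values, and Klra7, Klra9, Klrc2, Klri2 and Klrb1b negative ones.

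**Figure D4:**
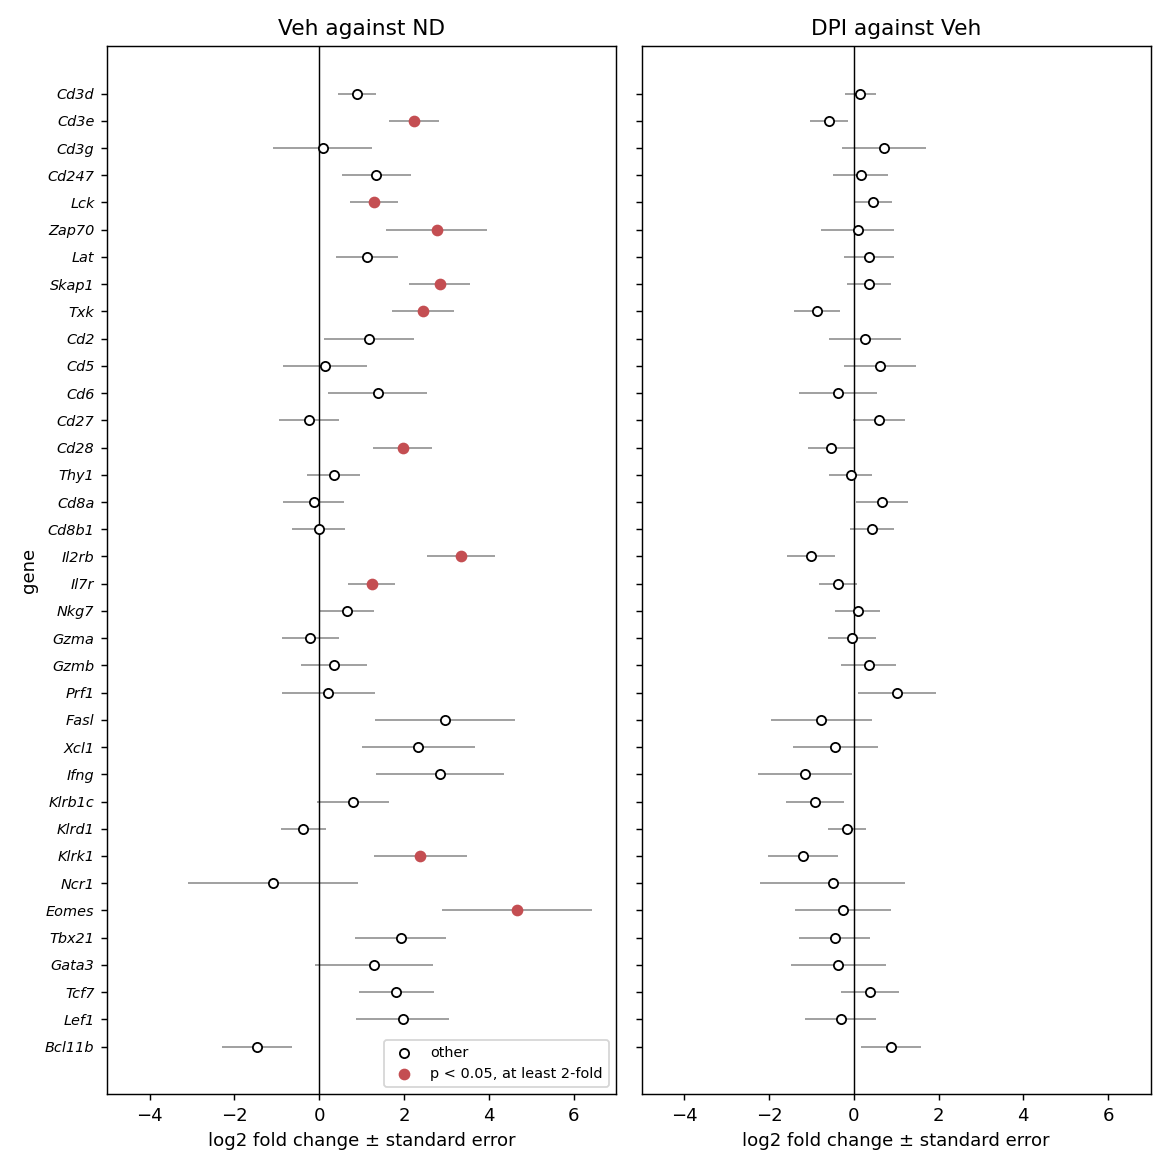
Log2 fold change with its standard error (edgeR) of the T and NK cell genes for Veh against ND (left) and DPI against Veh (right), with filled red points for genes at an unadjusted p under 0.05 and at least 2-fold. Cd96, at 0 in ND, and Cd4, not tested, are left out. The left panel holds 10 red points, all to the right of 0 and led by Eomes and Il2rb, and the right panel holds none.

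Against ND, the DPI libraries had 11 of 37 genes higher at the threshold, against 6.24% of all genes tested, and 0 lower, against 3.05% of all genes. The ND libraries are shared with the comparison of Veh with ND, so this is not independent of it. The median log2 fold change was 1.23 over the 37 genes and 0.04 over all genes, and no member had an adjusted p under 0.05 (edgeR, smallest value 0.125, where 0.00878% of all genes, 1 gene, did), although 11 had an unadjusted one, and DESeq2 gave 3 adjusted calls (219 over all genes tested) and the likelihood ratio test 2 (186 over all). The count of higher genes was 6 without ND1 (7.13% of all genes were then higher), 23 without ND2 (14.7%), 6 without DPI2 (5.74%) and 9 to 11 without any other library. The median of the members was 0.62 without ND1 and 2.75 without ND2. Skap1 had the smallest p, at a log2 change of 3.21 (standard error 0.71, edgeR, adjusted p = 0.125). Il2rb had 2.34 (standard error 0.75, adjusted p = 0.335) and Cd96 a mean at least 11.6-fold higher than the ND floor (edgeR, adjusted p = 0.257), and these 3 calls were kept with any library left out, Skap1 at 3.96 without ND1 and Il2rb at 1.44 without ND1 and 5.45 without ND2.

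The other 8 genes higher in DPI than in ND each lost the call without at least 1 library. In receptor signalling the log2 fold changes were 1.74 (standard error 0.56) for Lck, 2.86 (standard error 1.18) for Zap70 and 1.57 (standard error 0.68) for Txk. In the CD3 complex they were 1.63 (standard error 0.56) for Cd3e and 1.05 (standard error 0.42) for Cd3d. Cd28 had 1.44 (standard error 0.66) and Tcf7 had 2.2 (standard error 0.88), and the adjusted p of these 7 genes lay between 0.335 and 0.463 (edgeR). The pooled ratio of Eomes was 20.9 with a counting interval of 5.68 to 175 (edgeR, adjusted p = 0.41), and 10.3 (2.81 to 86.2) without ND1. Of these 8, all but Txk lost the call without ND1, where Lck was at 1.12, Tcf7 at 1.41 and Zap70 at 1.87. Without ND2, Cd3d was at 1.89, Cd28 at 2.33, Lck at 2.9 and Tcf7 at 4.17, and Txk was at 2.96 without ND1 and 0.91 without ND2. Txk lost it without ND2, Veh2, DPI1, DPI2 or DPI3, Cd3d, Tcf7 and Zap70 also without DPI2, Eomes also without DPI3, and Cd28 also without Veh2, Veh3, DPI2, DPI3 or DPI4.

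The members varied together across libraries to a degree. Over the 9 libraries the median Spearman correlation of log2 CPM between pairs of the 37 tested members was 0.378, with 85% of pairs positive, against a median of 0 over pairs of all genes tested. The points share library depth and group differences, so this is a description. Skap1 and Zap70 had the highest median correlation with the other members (0.608 each), and Bcl11b (-0.192) and Ncr1 (0.0848) the lowest.

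Further T and NK cell genes were examined as a second list. Of 54 listed, 53 were in the table and 48 were tested, and 9 were higher (against 7.03% of all genes) and 1 lower (against 4.63%) in Veh than in ND at the threshold. In DPI against ND, 9 were higher (against 6.24% of all genes) and 2 lower (against 3.05%). Klrb1f, Klrc1 and Klrc2, all killer cell lectin-like receptors, were at 0 in both ND libraries, and their Veh means were at least 13.1-fold, 9.14-fold and 5.81-fold higher than the ND floor (edgeR, adjusted p = 0.0692, 0.129 and 0.269). The bound of Klrc2 was 3.1-fold without Veh1. The other lectin-like genes of this list went both ways between Veh and ND. Klra1, Klra3, Klra4, Klra8, Klra9 and Klre1 had negative log2 differences, with Klra9 at -1.57. Klra7, Klri2, Klrg1 and Klrb1b had positive ones, with Klrb1b at 3.58, and none of these genes passed the threshold. Samd3, with 0 and 1 counts in ND, had a pooled ratio of Veh to ND of 52.5 with a counting interval of 9.11 to 2103, which was 25.9 (4.5 to 1038) without ND1. Without ND2, where ND was at 0, Veh was at least 8.87-fold higher. Rora, a nuclear receptor that T cells and innate lymphoid cells use but other cell types also express, had 51 and 25 counts in ND, 4, 1 and 5 counts in Veh and 39, 16, 32 and 84 counts in DPI. It was the only gene of that list past the threshold as lower in Veh than in ND, by a log2 change of -3.18 (standard error 1.09, edgeR, adjusted p = 0.284), a call lost without ND1 (-2.60), while 17 of the 48 had a negative value. It was higher in DPI than in Veh, by 2.85 (standard error 1.00, edgeR, adjusted p = 0.999), with any library left out. Both comparisons share the Veh libraries. Of the 48 genes, 3 were higher in DPI than in Veh at the threshold (6.25%, against 1.5% of all genes) and 1 lower (against 1.34%). With DPI, Sh2d1a, the adaptor SAP, was also higher than in Veh, by 3.71 (standard error 1.45, edgeR, adjusted p = 0.999), with 0, 8 and 2 counts in Veh and 43, 46, 54 and 77 counts in DPI, a call lost without Veh1, Veh3 or DPI2 and at 5.12 without Veh2. Serpinb9b had counts of 0, 0, 20 and 45 in DPI against 0 in all Veh libraries, and Pdcd1 had 0, 16 and 0 counts in Veh against 0 in all DPI libraries, so both calls rested on 1 or 2 libraries.

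Genes of other cell types also moved with the groups. The 10 B cell markers summed to 14.9 and 78.1 CPM in ND, 130, 232 and 178 CPM in Veh and 43.1, 21.4, 167 and 514 CPM in DPI, and 3 of the 10 were higher in Veh than in ND at the threshold, against 7.03% of all genes. The 7 sinusoidal endothelial markers summed to 120 and 185 CPM in ND, 11.1, 9.43 and 12.9 CPM in Veh and 139, 76.1, 4.27 and 26.6 CPM in DPI, and the 8 hepatocyte markers to 276 and 424, 200, 168 and 156, and 337, 204, 197 and 250 CPM. The 9 neutrophil markers, whose cells a Gr1low gate would be meant to leave out, summed to 991 to 2946 CPM in ND, 2338 to 3642 CPM in Veh and 743 to 5188 CPM in DPI, and the 6 dendritic cell markers to 55.2 to 61.3, 33.7 to 78.6 and 64.2 to 135 CPM. The 6 eosinophil and basophil markers summed to 19.3 and 20 CPM in ND, 7.55, 22.7 and 6.94 CPM in Veh and 96.5, 123, 5.38 and 74.9 CPM in DPI, and their members Prg2 and Epx were higher in DPI than in Veh at the threshold. So were Camp, Ngp and Ltf of the neutrophil markers, of which 4 of 9 had a negative value and whose sum averaged 3046 CPM in Veh and 2590 CPM in DPI, as well as C1qa and C1qc of the macrophage markers and Stab2 and Clec4g of the endothelial markers, against 1.5% of all genes. DPI3 had 2 counts of Prg2 and 0 of Epx. Of the 4 eosinophil and basophil markers tested, Il5ra had a negative value (-0.09) and Mcpt8 (0.71) missed the threshold. Of the 7 endothelial markers, 1 had a negative value, Cdh5 (-0.87). The 14 macrophage markers summed to 19583 and 25587 CPM in ND, 15360 to 25981 CPM in Veh and 21206 to 44621 CPM in DPI, most of it Lyz2. Of the 11 macrophage markers tested, 10 had a negative log2 difference between Veh and ND (median -0.66), and Emr1 and C1qa were lower at the threshold, against 4.63% of all genes. In ND1, the library with the most T and NK genes at 0, 8 of the 10 B cell markers were also at 0, against 1 in ND2. The part of these cell types in the differences between groups was not tested.

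**Figure D5:**
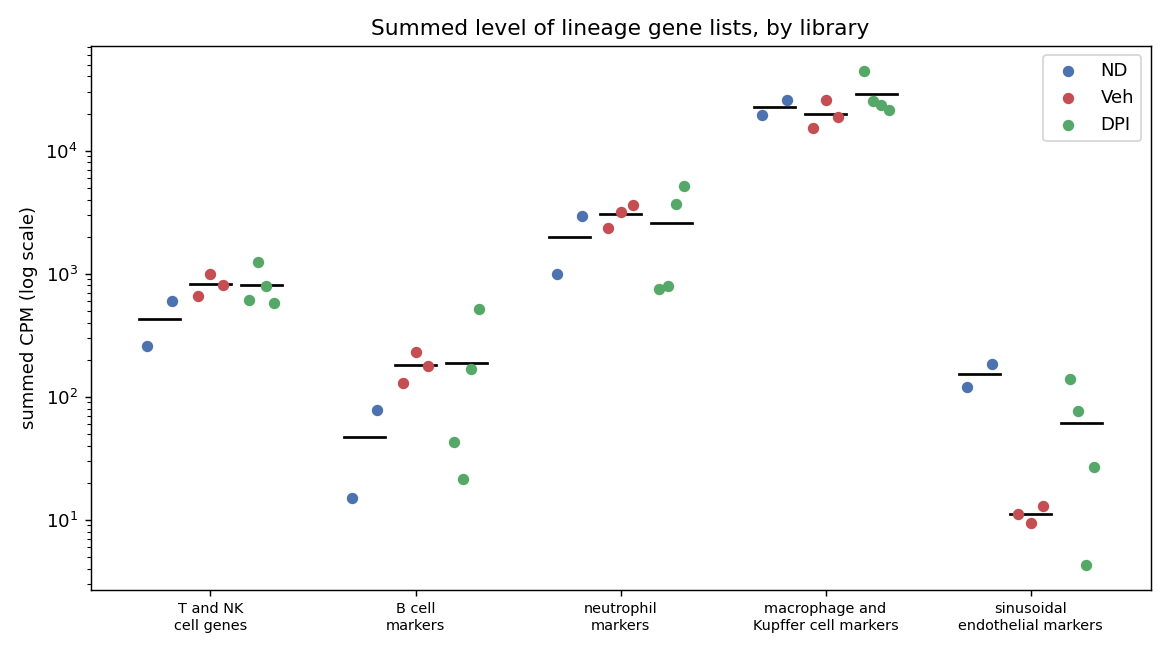
Summed CPM of the T and NK cell genes and of the marker lists of B cells, neutrophils, macrophages and sinusoidal endothelium on a log axis, with 1 point per library and a bar at each group's mean. T and NK cell genes and B cell markers are lowest in ND1, sinusoidal endothelial markers are at 12.9 CPM or less in the Veh libraries and DPI3, and macrophage markers exceed every other list in all libraries.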

How the data were processed

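RNA-seq of sorted liver macrophages was analysed for 9 libraries, 2 ND, 3 Veh and 4 DPI, grouped by their labels. Reads were mapped to mm10 by the authors, who obtained gene counts through bowtie2 and RSEM and deposited them as whole raw counts for 23413 genes, not normalized; the submitters' processing notes name TopHat2. The annotation and the strand setting of the counting are not given in the sources used here. All columns were mapped to libraries.

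Counts were tested with edgeR 4.0.16 (R 4.3.3) by filterByExpr, TMM and the quasi-likelihood test, in 1 fit of all 9 libraries with a biological coefficient of variation of 0.65 and with Benjamini-Hochberg adjustment over 11393 genes. The threshold of the study's methods, an unadjusted p under 0.05 with at least a 2-fold change, was also used. Scripts were tested on simulated data. Alternatives used RLE scaling, library size alone, no filter, at least 10 counts in every library, DESeq2 1.42.0, the likelihood ratio test, fits of 2 groups, the replicate number as a block, no Rn45s, thinned counts, and each library left out.

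The members and all gene lists were chosen with earlier results of these data known. Values in every library were given for members past the threshold in any comparison and, in a role with none, for the member with the most counts; of the further T and NK list, at most 5 genes per direction and comparison were named, by p, and 1 gene that the rule selects is not reported here. Gene positions and exon lengths came from GENCODE M21 (GRCm38) and promoters from RefSeq (GRCm38.p6). Python 3.11.15 drew the figures.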

Additional observations from a re-analysis of the deposited data

Results flagged for a closer look

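Among the 4 DPI libraries, 56 values (single genes, summed roles and lists) were examined for a library far from the rest, by the gap to the nearest other library over the range against Dixon's 95% critical value, which chance exceeds in about 1 of 20 cases. In 3 of the 56, near the share that chance gives, DPI2, the library with the fewest counts, stood above the others. Cd8a was at 68.3 CPM in DPI2 and at most 13.4 CPM in the other DPI libraries. The summed surface receptors were at 173 CPM in DPI2 and at most 88.9 CPM in the others, and the summed secreted cytokines at 21.1 CPM against at most 8.16 CPM. DPI2 also had the highest summed level of all T and NK cell genes, 1236 CPM. The cause was not tested. Without DPI2 no member passed the threshold between DPI and Veh, as with it.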

How the results depend on the processing

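For Veh against ND, 11 members were higher, and the count was 10 with RLE scaling (6.73% of all genes were then higher), 8 with library size alone (4.73%, where the all-gene median of the log2 fold change was -0.26 in place of 0.03, with 539 genes higher against 933 lower in place of 801 against 528), 12 without the filter (6%), 4 of the 16 left with at least 10 counts in every library (5.64%), 6 with only these groups fitted (5.49%), and 6 to 25 with 1 library left out. Members lower were 1 without the filter (Cd4, with 685 of 15902 genes lower) and 0 to 1 with 1 library left out (1 without ND1, ND2 or Veh3, with 535, 841 and 349 of all genes lower), and adjusted calls were 1 without the filter (Il2rb, 52 over all genes), 4 with DESeq2 (312), 3 with the likelihood ratio test (280) and 0 to 9 with 1 library left out (9 without ND2, where 568 of all genes had one). For DPI against Veh, members higher were 1 without the filter (Cd4, with 281 of all genes higher) and 0 to 1 with 1 library left out (Cd4 without ND1 and Ncr1 without Veh3, with 277 and 126 of all genes higher), and members lower were 2 with only these groups fitted (239 of 10431 genes lower) and 0 to 2 with 1 library left out (Il2rb and Klrk1 without ND1 or ND2, with 266 and 275 of all genes lower). For DPI against ND, 11 members were higher, with 5 of 16 at 10 counts in every library (3.62% of all genes), 8 with library size alone (4.79%) and 6 to 23 with 1 library left out; adjusted calls were 3 with DESeq2 (219 over all genes), 2 with the likelihood ratio test (186) and 0 to 8 with 1 library left out (8 without ND2, where 572 of all genes had one). A fit without ND1 or ND2 assumes that the lone ND library varies like the other groups.

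Of the 22 calls of single members in these comparisons, 16 held with library size alone, 20 with RLE scaling or thinned counts, and 22 with DESeq2 and without the filter. With 2 groups fitted 15 held and 6 did not, and Cd96 in Veh against ND was not tested there. None changed direction. The replicate numbers did not pair the libraries, since the same-numbered libraries deviated together with correlations of -0.0222 to 0.0841 and not every library correlated best with its own number. With the replicate block, 16 members were higher for Veh against ND (5.35% of all genes), 0 higher or lower for DPI against Veh and 12 higher for DPI against ND (4.71% of all genes).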
